A study of Mus musculus with 24 samples.

Results

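Transforming growth factor beta (TGF-beta) is secreted bound to its own propeptide and is stored outside the cell until it is released. The active dimer binds the type II receptor, which recruits and phosphorylates the type I receptor. The type I receptor then phosphorylates Smad2 and Smad3, which join Smad4 and move to the nucleus. Smad7 binds the type I receptor and limits the signal. In blood, platelets are a large store of TGF-beta1, and T cells, monocytes and macrophages both make and respond to these ligands.

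The genes described here are the 3 ligands Tgfb1, Tgfb2 and Tgfb3, the 3 receptors Tgfbr1, Tgfbr2 and Tgfbr3, and the 4 Smads Smad2, Smad3, Smad4 and Smad7, chosen by name. All 10 genes had at least 1 probe on the array, with 18 of 39429 probes in all, and 9 of them were among the 17464 genes tested. Tgfbr3 differed 1.5-fold from its median on 4 arrays where 5 were needed, so its values are given from a test without that filter. Tgfb3 and Smad4 passed the filter with 5 arrays each.

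RNA of whole blood from 24 male C57BL/6J mice was measured on single-dye Agilent arrays, 1 mouse per array, in 4 groups of 6. The young mice were 2 months old and the old mice 21 months old, and each age was either irradiated with 4 Gy of x-rays over the whole body or not irradiated. Blood was taken by cardiac puncture 24 h later, and the labels name no transgene or deletion in any group. The question was how age alters the response of blood to radiation, and levels below are log2 signal minus the median of the array. A gene was called higher or lower where p was under 0.005 and the Benjamini-Hochberg adjusted p over all genes was under 0.05 in limma's moderated test.

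The arrays differed in ways that touch these genes. The median signal of an array was between 8.66 and 44.8, and between 43.9% and 64.4% of spots were well above background. Old irradiated mice 4 and 6 had the lowest median signals, 8.66 and 8.84. Their mean level of 4 leukocyte markers (such as Coro1a, Lcp1 and Ptprc) was 6.44 and 6.16 against 7.49 to 8.91 in the other old irradiated mice, and that of 6 erythroid markers was 12.7 and 12.8 against 8.53 to 9.55. The old differences of the members and of the pathway genes named are therefore given with and without these mice where that moved a call or the value by more than 1.5 times, a choice made after seeing the data. Sizes of the differences between the ages' responses are given with all mice only. Counts of cell type markers called in old mice are also given with all mice, and they were not tested without mice 4 and 6. All 4 leukocyte markers were well above background on every array. No 2 arrays agreed within the noise of repeat spots, but 5 pairs within a group, old irradiated mice 4 and 6 among them, differed by under 4 times that noise, and whether such a pair shared an animal or a pool cannot be told from the labels. Young mice were hybridised on slides 1 to 3 and old mice on slides 4 to 6, scanned on different days, so age and scan day cannot be told apart. Irradiation was partly tied to slide. Slides 1 and 4 held only unirradiated mice, slides 3 and 6 only irradiated mice, and slides 2 and 5 both. From array signal in whole blood, fewer cells of a type and less RNA per cell cannot be told apart either.

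The 2 probes that carry the ligand results lie in the coding part of the transcripts, and they are shown because Tgfb1 and Tgfb2 are related genes and gave the called ligand results. The Tgfb1 probe is at chr7:26489877-26489936 on the plus strand and the Tgfb2 probe at chr1:188449333-188449392 on the minus strand, both in mouse build mm9 as the array files give them. Each has 60 bases, and capitals mark the bases that match in the best alignment without gaps, 28 identical of 41 that overlap.
Tgfb1: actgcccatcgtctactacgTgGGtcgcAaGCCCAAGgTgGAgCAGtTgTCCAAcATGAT
Tgfb2: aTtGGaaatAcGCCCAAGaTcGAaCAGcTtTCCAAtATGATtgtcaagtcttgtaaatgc
Whether transcripts of one gene gave signal on the probe of the other was not tested.

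**Figure D1:**
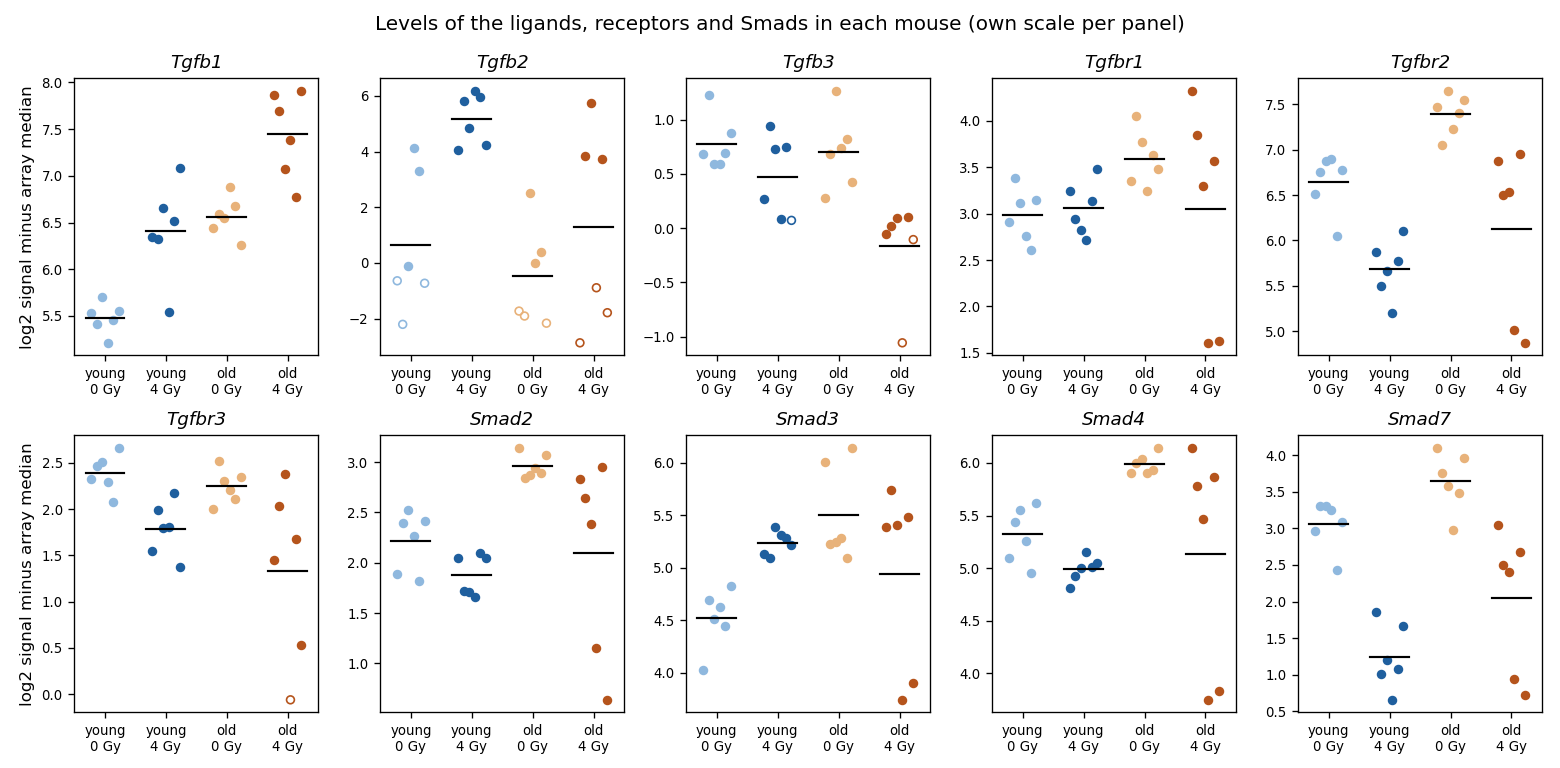
Log2 signal minus the array median of each gene in each mouse (points, in order of mouse number), with the group mean as a bar and open points where the probe was not well above background. Tgfb2 splits into mice near or below 0 and mice above 2.5, and old irradiated mice 4 and 6 are the 2 lowest points of their group for the 3 receptors and the 4 Smads.

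Tgfb1, the main TGF-beta ligand of blood, was higher after irradiation in young mice. Its level ran from 5.21 through a median of 5.49 to 5.71 in young unirradiated mice and from 5.54 through 6.43 to 7.08 in young irradiated mice. The groups overlapped through 1 irradiated mouse. The difference was 0.93 ± 0.22 (SE, n = 6 against 6) on the log2 scale, a 1.91-fold rise with an adjusted p of 0.00344.

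In old mice Tgfb1 ran from 6.26 through 6.57 to 6.88 without irradiation and from 6.78 through 7.54 to 7.91 after it, with 1 irradiated mouse below the highest unirradiated one. The rise was 0.89 ± 0.25, 1.85-fold, with an adjusted p of 0.0169. This call was the less firm one: it was lost when any 1 of 9 mice was left out (old unirradiated 1, 2, 3, 5 and 6 and old irradiated 1, 2, 4 and 6), with differences between 0.80 and 1.02 over the 12 mice left out in turn. Without old irradiated mice 4 and 6 together the difference was 0.79 ± 0.23, with an adjusted p of 0.0163 and a p of 0.00586 that missed the threshold. The old response minus the young response was -0.05 ± 0.32, with a 95% interval from -0.72 to 0.62.

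Platelet markers moved with Tgfb1. All 11 platelet markers, led by Pf4, Ppbp and Treml1, were called higher after irradiation in both ages, and their mean level ran from 7.39 to 8.28 in young unirradiated mice, 8.51 to 10.4 in young irradiated mice, 8.58 to 9.59 in old unirradiated mice and 10.3 to 11.2 in old irradiated mice. The 3 genes whose pattern over the 24 arrays was nearest to that of Tgfb1, by the root mean square difference after centring each gene, were Pear1 (0.20 on the log2 scale), Flna (0.20) and 0610009L18Rik (0.20), against a standard deviation of Tgfb1 itself of 0.79. In the paper's blood counts, platelet numbers changed little after irradiation in either age group. The part of platelets in the Tgfb1 result was not tested.

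Tgfb2 showed the widest spread of the 10 genes, and it was high in some mice of every group. In young unirradiated mice it ran from -2.21 through a median of -0.37 to 4.14, with mice 4 and 5 at 4.14 and 3.30 and the other 4 mice below 0. In young irradiated mice all 6 were between 4.04 and 6.18, with a median of 5.33. Only mouse 1, at 4.04, lay below the highest unirradiated mouse.

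The young difference was 4.56 ± 0.96 on the log2 scale, with an adjusted p of 0.00191, and lay between 3.99 and 5.26 with each mouse left out in turn. The probe was well above background on 3 of 6 arrays of young unirradiated mice and on all 6 of young irradiated mice. The second Tgfb2 probe, which failed the filter on dim probes, gave 5.09.

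In old mice Tgfb2 ran from -2.17 through -0.86 to 2.51 without irradiation, with mouse 3 at 2.51 and the next highest at 0.39. After irradiation mice 2, 3 and 5 were at 3.86, 5.73 and 3.74 and mice 1, 4 and 6 at -2.87, -0.89 and -1.79. The old irradiated group was thus split, 3 mice high and 3 low, and the difference of 1.78 ± 1.42 was not called (adjusted p of 0.346). Without old irradiated mice 4 and 6 it was 3.10 ± 1.48 (adjusted p of 0.105). With all mice the old response minus the young response was -2.78 ± 1.82 with a 95% interval from -6.53 to 0.97 (adjusted p of 0.331).

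The mice that were high in Tgfb2 were also high in genes of macrophages that live in tissues rather than in blood. The mean level of 8 resident macrophage markers, of which Cd5l, Adgre1 and C1qb had the highest levels, was 4.76 and 4.84 in young unirradiated mice 4 and 5 and at most 2.61 in the other 4. It was between 5.33 and 7.77 in the 6 young irradiated mice. In old irradiated mice 2, 3 and 5 it was 6.05, 7.41 and 6.57, and in mice 1, 4 and 6 it was 0.73, 2.48 and 2.65. Of the 8 markers, 7 were called higher in young and 1 in old mice after irradiation.

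Old unirradiated mouse 2 parted these signals. Its resident macrophage level was 4.32, the highest of its group, while Tgfb2 was at -1.91 and the probe was not well above background. A second list, of 14 genes known from macrophages of the serous cavities (such as Gata6, Alox15, Prg4 and Garnl3, with the highest levels for F5, Icam2 and F10) and written after Tgfb2 and several of these genes had been seen to vary together, was low in that mouse at 1.12. This list was highest of its group in old unirradiated mouse 3 at 3.81, the mouse with the highest Tgfb2 of that group. Across the groups it ran from 0.88 to 4.24 in young unirradiated, 4.64 to 6.20 in young irradiated, 1.12 to 3.81 in old unirradiated and 1.10 to 6.07 in old irradiated mice. Of its 12 tested genes, 12 were called higher in young and 3 in old mice. Those 3, named after their values had been seen, were Selp, F5 and F10 (2.42, 1.86 and 1.74 in old mice). Unlike Tgfb2, they were well above background on all 6 arrays of every group. Their old calls were not tested without mice 4 and 6. Selp, F5 and F10 were called higher after irradiation in both ages, as all 11 platelet markers were. Gata6, Alox15, Prg4 and Garnl3 were called higher after irradiation in young mice only. The part of platelets in the values of Selp, F5 and F10 was not tested.

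The transcription factor Gata6, which defines macrophages of the peritoneal cavity, was well above background on 3, 6, 3 and 3 arrays of the young unirradiated, young irradiated, old unirradiated and old irradiated groups, the same numbers as Tgfb2. The genes nearest to Tgfb2 in pattern were C4b (0.50), Ptgis (0.53) and Garnl3 (0.63), against a standard deviation of Tgfb2 of 3.13. Both Gata6 and Garnl3 are on the second list, which was written after several of its genes had been seen to vary with Tgfb2. Neither match is therefore independent of how that list was chosen.

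Genes of other tissues were seen on part of the same arrays. The mean of 8 hepatocyte markers, led by Serpina1a, Fgb and Ambp, was 8.85, 9.05 and 9.49 in old irradiated mice 2, 3 and 5 and 0.26 to 3.28 in the others. In young irradiated mice it was 9.15, 10.2 and 9.38 in mice 2, 4 and 5, but 1.10, 0.52 and 1.29 in mice 1, 3 and 6, whose Tgfb2 was nonetheless 4.04, 4.84 and 4.25. Unirradiated mice ran from -0.52 to 6.37 at the young age, with the highest value in mouse 5, and from -1.51 to -0.71 at the old age. Fibroblast markers, of which Pdgfra was well above background on 0 arrays of every group, ran from -2.06 to 0.22 in young unirradiated and from -0.84 to 1.93 in young irradiated mice. The part of these cells in the Tgfb2 result was not tested.

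**Figure D2:**
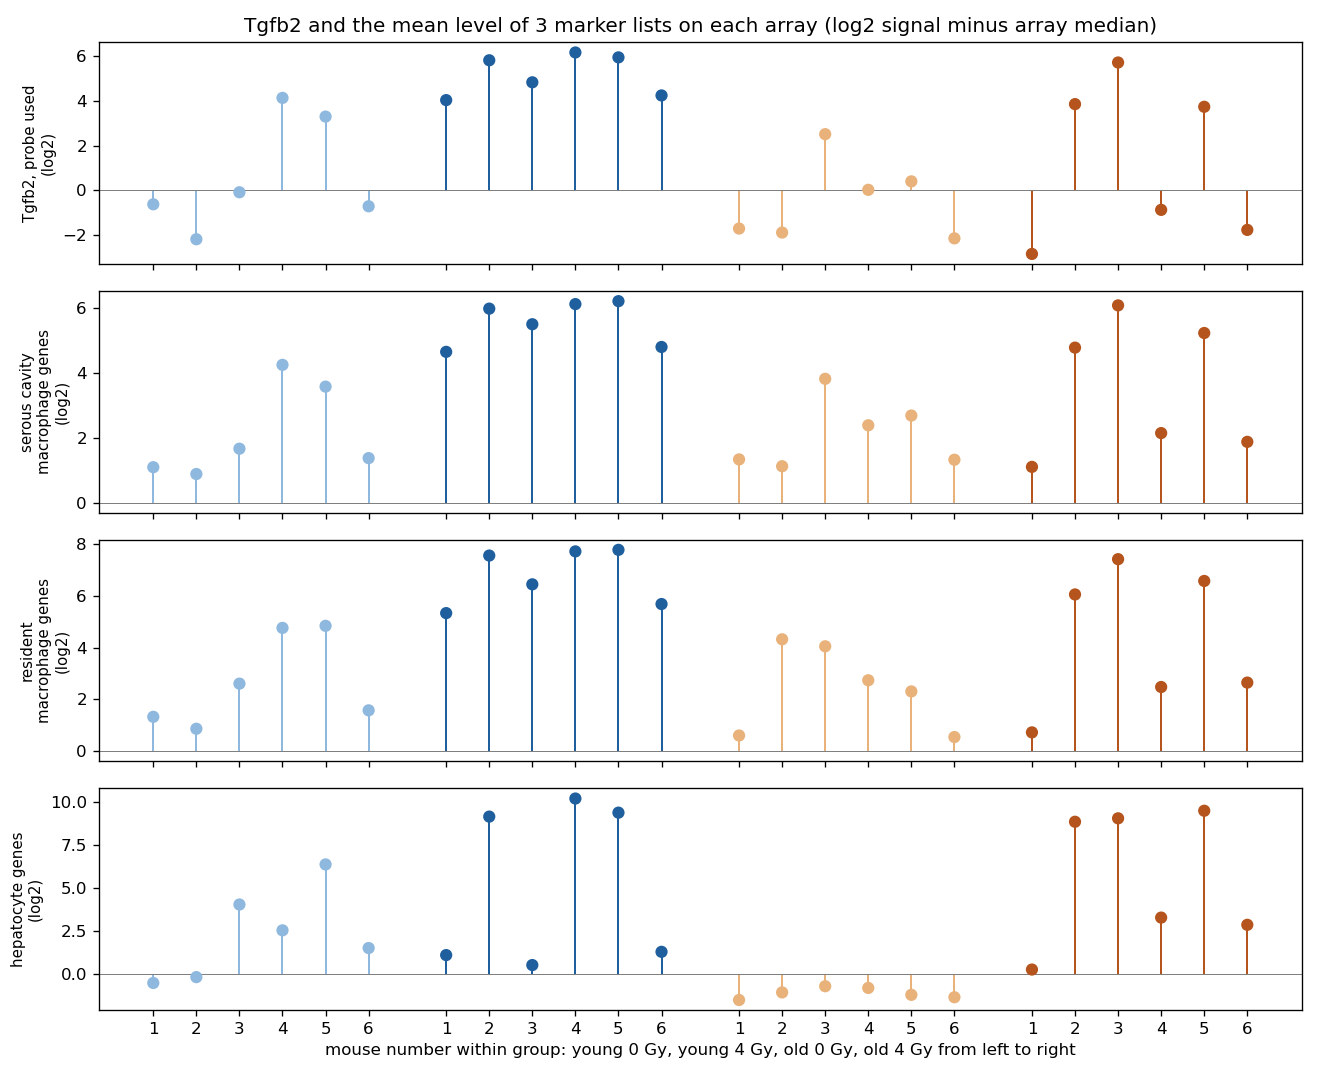
Level of Tgfb2 (top) and mean level of 14 serous cavity macrophage genes, 8 resident macrophage genes and 8 hepatocyte genes, as log2 signal minus array median, for each mouse by group. Tgfb2 and the serous cavity list are high in the same mice, as the choice of that list after seeing these values leads one to find, and the hepatocyte list is low in young irradiated mice 1, 3 and 6.

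Tgfb3, the third ligand, was dim and was not called in any comparison. It ran from 0.59 to 1.22 in young unirradiated and from 0.07 to 0.95 in young irradiated mice, a difference of -0.30 ± 0.19 (adjusted p of 0.211). In old mice it ran from 0.28 to 1.26 and from -1.06 to 0.10, and these groups did not overlap. The old difference was -0.87 ± 0.27 with an adjusted p of 0.0239, but its p of 0.00644 missed the threshold. Without mice 4 and 6 it was -0.66 ± 0.20, again without a call (adjusted p of 0.0175). The probe was well above background on 4 of 6 arrays of old irradiated mice.

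Tgfbr2, the type II receptor that binds the ligand, was lower after irradiation in young mice. It ran from 6.05 through 6.77 to 6.90 in young unirradiated mice and from 5.20 through 5.72 to 6.10 in young irradiated mice, an overlap of 1 mouse. The fall was by 0.96 ± 0.19, 1.94-fold, with an adjusted p of 0.00128. The second Tgfbr2 probe, in another part of the transcript, fell by 0.66 between the group means.

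In old mice Tgfbr2 ran from 7.05 through 7.44 to 7.65 without irradiation and from 4.87 through 6.52 to 6.96 after it, and every irradiated mouse lay below every unirradiated one. The difference was -1.27 ± 0.38 with an adjusted p of 0.0214, but its p of 0.00553 missed the threshold. Without old irradiated mice 4 and 6, which were at 5.01 and 4.87, it was smaller at -0.68 ± 0.18 but was called (adjusted p of 0.0094). It was also called without old irradiated mouse 1 (-1.42) or mouse 5 (-1.43). The genes nearest to Tgfbr2 in pattern were Zmym2 (0.14), Foxk1 (0.14) and Tec (0.15), against a standard deviation of 0.82.

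Markers of B and T cells were lower on the same arrays, and those of NK cells were not. All 6 B cell markers, led by Cd79b, Ms4a1 and Cd79a, were called lower in young mice, and their mean level ran from 6.31 to 6.71 without and from 3.54 to 4.88 after irradiation. Of 8 T cell markers, led by Lck, Cd3e and Cd3d, 6 were called lower in young mice and 0 in old mice, with mean levels from 5.39 to 6.07 and from 3.94 to 5.40 in young mice. In old mice 5 of the 6 B cell markers were called lower, with levels from 6.59 to 7.58 and from 2.93 to 5.33. Of 5 NK cell markers, 2 were called higher in young mice (Ncr1 and Klrb1c, by 1.75 and 1.61, named after their values had been seen) and 0 lower. In old irradiated mice 4 and 6 the T cell level was 5.95 and 6.09, the highest of the group, where the others ran from 4.88 to 5.62. In the paper's blood counts, the share of lymphocytes among white cells fell after irradiation in both age groups. The part of lymphocytes in the receptor and Smad results was not tested.

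Tgfbr1, the type I receptor that phosphorylates Smads, was not called after irradiation in either age. It ran from 2.61 to 3.39 and from 2.71 to 3.48 in young mice, a difference of 0.07 ± 0.18 with a 95% interval from -0.31 to 0.45. In old mice it ran from 3.24 to 4.05 and from 1.61 to 4.32, and the lowest irradiated values, 1.61 and 1.63, were again mice 4 and 6. The old difference was -0.54 ± 0.46 with them and 0.17 ± 0.23 without them, so its sign rested on these mice. Their mean level of 5 monocyte markers was 3.65 and 3.86, against 5.76 to 6.39 in the other old irradiated mice. The other 3 Tgfbr1 probes were well above background on between 0 and 4 arrays of a group.

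Tgfbr3, the co-receptor betaglycan that presents ligand to the type II receptor, ran from 2.08 through 2.40 to 2.66 in young unirradiated mice and from 1.38 through 1.80 to 2.18 in young irradiated mice. In the test without the filter on variation it was called lower, by 0.60 ± 0.16 (adjusted p of 0.00797), and the call held under the 3 other scalings but not with the deposited table (-0.78, adjusted p of 0.102) or normexp (-0.19, adjusted p of 0.867). In old mice it ran from 2.00 to 2.52 and from -0.06 to 2.38, a difference of -0.92 ± 0.38 that was not called (adjusted p of 0.0761), and without mice 4 and 6 it was -0.36 ± 0.20 (adjusted p of 0.156).

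Smad7, the inhibitory Smad, was lower after irradiation in both ages. It ran from 2.43 through 3.18 to 3.30 in young unirradiated mice and from 0.66 through 1.14 to 1.86 in young irradiated mice. Every irradiated mouse lay below every unirradiated one. The fall was by 1.81 ± 0.22, 3.51-fold, with an adjusted p of 5.13e-05.

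In old mice Smad7 ran from 2.97 through 3.67 to 4.10 without irradiation and from 0.73 through 2.45 to 3.05 after it, with an overlap of 1 irradiated mouse. The fall was by 1.59 ± 0.41, 3.01-fold, with an adjusted p of 0.0103. Mice 4 and 6 were the lowest at 0.94 and 0.73, and without them the fall was by 0.98 ± 0.24 and was still called (adjusted p of 0.00569). The call was lost without old unirradiated mouse 1, where the difference was -1.50. The difference between the ages' responses was 0.22 ± 0.48 with a 95% interval from -0.77 to 1.21. The genes nearest to Smad7 in pattern were Arhgef18 (0.27), Pde4b (0.27) and Map3k14 (0.29), against a standard deviation of 1.09.

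Smad3, which carries the signal to DNA, was higher in young mice after irradiation. It ran from 4.02 through 4.57 to 4.82 without and from 5.09 through 5.25 to 5.39 with irradiation, with no overlap. The rise was 0.72 ± 0.15, 1.64-fold, with an adjusted p of 0.00165. A second Smad3 probe failed the filter on dim probes. It was well above background on 0 arrays of young unirradiated and 1 of young irradiated mice, so no size is given.

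In old mice Smad3 ran from 5.09 through 5.27 to 6.14 and from 3.74 through 5.40 to 5.74, so the groups overlapped in part. Irradiated mice 4 and 6 lay below every unirradiated mouse, and unirradiated mice 1 and 6 lay above every irradiated one. The difference was -0.56 ± 0.39 with all mice and 0.00 ± 0.24 (rounded) without irradiated mice 4 and 6, which were at 3.74 and 3.90. With all mice the difference between the ages' responses, -1.27 ± 0.42, was not called (adjusted p of 0.131, p of 0.00623). Its size rested in part on irradiated mice 4 and 6, and it was not called without them either. The genes nearest to Smad3 in pattern were Txnrd1 (0.20), Golm1 (0.21) and a transcript listed as XR_141891 (0.24), against a standard deviation of 0.61.

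Smad2, the other receptor-activated Smad, and Smad4, the common partner, were not called after irradiation in either age. Smad2 differed by -0.34 ± 0.16 in young mice (adjusted p of 0.107) and by -0.86 ± 0.39 in old mice (adjusted p of 0.101). Smad4 differed by -0.33 ± 0.14 in young mice (adjusted p of 0.078) and by -0.85 ± 0.42 in old mice (adjusted p of 0.133). Without old irradiated mice 4 and 6 the old differences were -0.26 ± 0.16 for Smad2 and -0.17 ± 0.16 for Smad4. The other Smad4 probes differed by -0.14 and -0.52 between the means of the young groups, the same direction as the probe used.

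**Figure D3:**
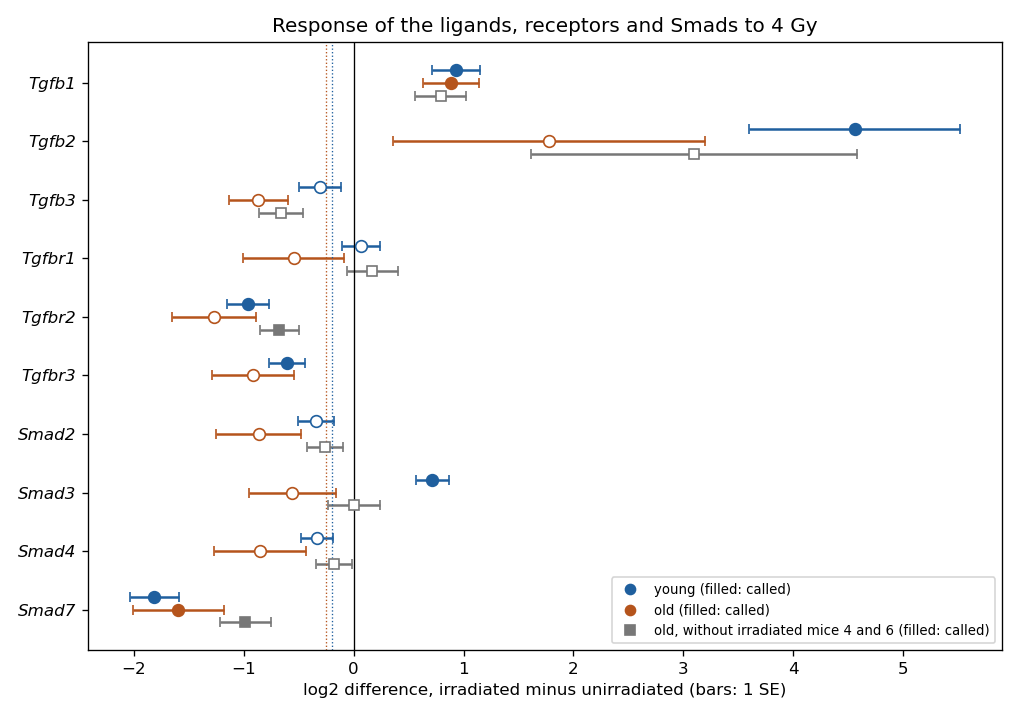
Log2 difference between irradiated and unirradiated mice for each gene, in young mice, in old mice, and in old mice without irradiated mice 4 and 6, with bars of 1 SE, filled where called and with dotted lines at the median of all genes tested. Tgfbr3 is drawn for young mice and for all old mice only, from the test without the filter on variation. Tgfb1 is to the right and Smad7 to the left of 0 in all 3 series, while the old differences of Tgfbr1, Tgfbr2 and the Smads shrink without mice 4 and 6.

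Counted together, 3 of 9 tested members were called higher in young mice after irradiation (Tgfb1, Tgfb2 and Smad3), where 14.4% of all genes tested were, and 2 of 9 lower (Tgfbr2 and Smad7), where 21.4% of all genes were. In old mice 1 of 9 was called higher (Tgfb1), against 7.6% of all genes, and 1 of 9 lower (Smad7), against 17.4%. The median difference of the members was -0.30 in young and -0.85 in old mice, beside -0.20 and -0.25 over all genes. Groups did not overlap for 2 of 9 members in each age, Smad3 and Smad7 in young and Tgfb3 and Tgfbr2 in old mice, where 25% and 22.7% of all genes did not overlap. For the interaction of age and irradiation limma called 0 of 17464 genes, 0% (4116 had an unadjusted p under 0.05, the random variance test of the study's methods also called 0, and without old irradiated mouse 3 limma called 258 higher and 786 lower, with 0 members among them). With all mice, Smad3 had the only unadjusted p under 0.05 among the members.

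In young mice the calls of Tgfbr2 and Smad7 held under the 3 other scalings and the deposited table but were lost with normexp background correction (-0.39 and -0.98), that of Smad3 was lost with normexp (1.12), 1 fit of all 24 arrays (0.72) and the deposited table (0.56), and that of Tgfb2 held under each of these. Smad3 was not tested with the 75th percentile or bright probes, since it no longer passed the filter on variation. The rise of Tgfb1 lost its call with quantile normalization (0.76 in young, 0.75 in old mice), normexp (1.37 and 1.44) and the deposited table (0.72 and 0.82). Tgfb1 in young mice also lost it where the most similar arrays counted as 1 sample (0.87) or young unirradiated mice 4 and 5 were left out (0.86), and Smad7 in old mice was lost with normexp (-0.53), the deposited table (-1.36) and the most similar arrays as 1 sample (-1.27).

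Unirradiated old mice were compared with unirradiated young mice, a contrast in which age cannot be told apart from slide and scan day. On this scale 6 of 9 members were called higher in old mice (Tgfb1, Tgfbr1, Tgfbr2, Smad2, Smad3 and Smad4) and 0 lower, but 48.3% of all genes were called higher and 15.5% lower, and the median of all genes was itself 0.63 higher in old mice. The members' median was 0.67. The groups did not overlap for 5 of 9 members (Tgfb1, Tgfbr2, Smad2, Smad3 and Smad4), where 48.6% of all genes did not overlap.

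Relative to that shift, Tgfb1 and Smad3 stood higher and Tgfb2 and Tgfb3 lower. Tgfb1 differed by 1.09 ± 0.14 (adjusted p of 2.38e-05), 0.46 above the median of all genes. Smad3 differed by 0.98 ± 0.21 (adjusted p of 0.000917), 0.35 above it. The differences of Tgfbr1, Tgfbr2, Smad2, Smad4 and Smad7 were within 0.12 of it, at -0.02, 0.12, 0.12, 0.04 and -0.04.

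The ligand Tgfb3 differed by -0.08 ± 0.18 and lay 0.70 below the median of all genes, and Tgfb2 differed by -1.11 ± 1.09 with a 95% interval from -3.45 to 1.24. Without the filter on variation Tgfbr3 differed by -0.14 ± 0.13 (adjusted p of 0.354), where the median of all genes was 0.61. Scaled to the 75th percentile, by quantiles or to bright probes, Tgfbr3 passed the filter on variation, differed by -0.66, -0.53 and -0.73 and was called lower each time, where the genes tested had medians of -0.02, 0.11 and -0.11.

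Under the 4 scalings 6 members were higher in old mice each time and Tgfb2, Tgfb3 and Tgfbr3 lower each time, but Smad7 changed sign (0.58 and -0.01), and Tgfbr1 (0.60 to 0.01) and Smad4 (0.66 to 0.01) came down to almost no difference. Tgfbr2 differed by 0.75 with the median, 0.23 with the 75th percentile, 0.06 with quantiles and 0.16 with bright probes. Of the 6 members called on the main scale, Tgfb1 kept its call with the 75th percentile and none with quantiles or bright probes, where Tgfbr1, Smad2 and Smad4 were no longer tested and Smad3 was tested with quantiles alone. Of all genes called, 75.7% were higher in old mice with scaling to the median and 27.9%, 42.5% and 20.6% with the 75th percentile, quantiles and bright probes. For old irradiated mice the share was 30.4% and 49.0%, 36.9% and 54.4%. The call of Tgfbr1 was lost without any 1 of 9 mice (young unirradiated 1, 3, 4, 5 and 6 and old unirradiated 2, 3, 5 and 6), and Smad7 was called without old unirradiated mouse 4 (0.72).

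**Figure D4:**
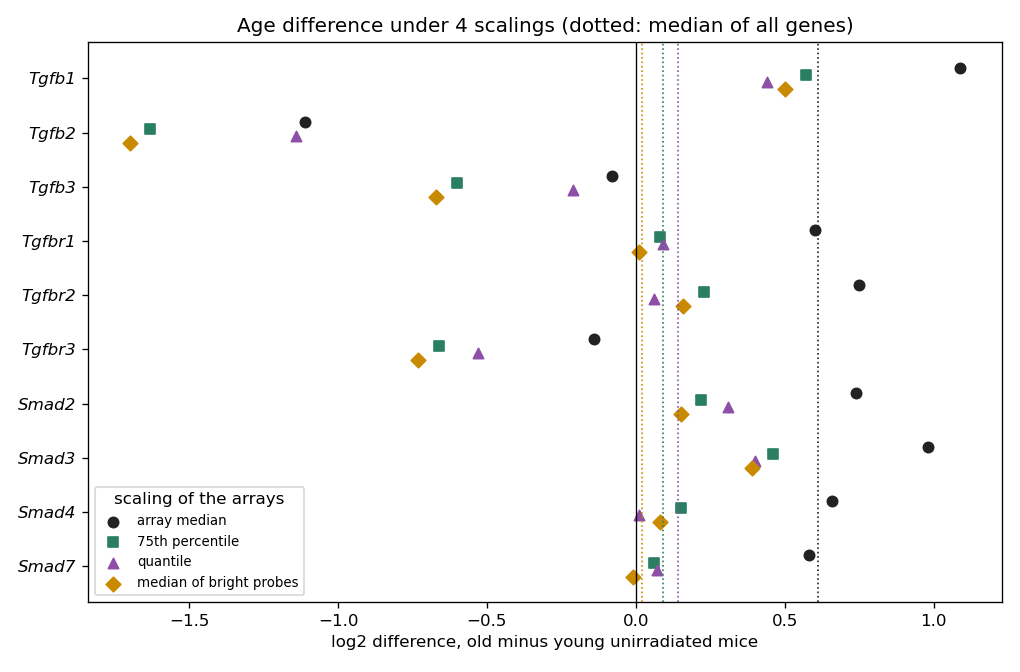
Log2 difference between old and young unirradiated mice for each gene under 4 ways of scaling the arrays, with dotted lines at the median of all genes under each. Scaling to the array median moves every gene to the right, and Tgfb1 and Smad3 stay above, and the other ligands and Tgfbr3 below, the median of all genes under each scaling.

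Genes around the pathway were taken from 8 lists of 74 genes, of which 49 were tested. In young mice 15 were called higher and 8 lower after irradiation, where 14.4% and 21.4% of all genes were, and in old mice 9 higher and 4 lower, where 7.6% and 17.4% were. Without old irradiated mice 4 and 6 the old counts were 15 higher and 5 lower, and those of all genes went from 1327 to 2074 higher and from 3040 to 3985 lower. Platelet, macrophage, endothelial and lymphocyte markers moved on the same arrays, and their part in these counts was not tested.

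Genes that store and release the latent ligand had the highest median of the 8 lists in both ages. Of 9 tested, 6 were called higher in young and 5 in old mice and 0 lower, with medians of 1.15 and 1.59. The shares of all genes called higher were 14.4% and 7.6%, and those called lower 21.4% and 17.4%. Thbs1, thrombospondin-1, which can release TGF-beta from its latent form and is abundant in platelets, rose by 2.36 ± 0.23 (adjusted p of 9.56e-06) in young and by 2.85 ± 0.36 (adjusted p of 0.000307) in old mice. Ltbp1, a latent TGF-beta binding protein, rose by 2.14 ± 0.17 (adjusted p of 1.98e-06) and 1.61 ± 0.28 (adjusted p of 0.00136). Nrros, which holds latent ligand on myeloid cells, was not called (0.17 in young and -0.66 in old mice, and 0.03 without mice 4 and 6). Without those mice 6 of 9 were called higher in old mice, Ltbp3 (0.66) being added.

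Lrrc32, which encodes GARP and holds latent ligand on platelets and regulatory T cells, rose by 1.77 ± 0.23 and 2.19 ± 0.29. Ltbp2 and Ltbp4 were the other genes of the list called in both ages, and Furin, the protease that cuts the precursor, was called in young mice (1.12) and not in old mice (0.53), with an interaction of -0.59 ± 0.46 that was not called (adjusted p of 0.406). Without mice 4 and 6 the old Furin difference was 0.96 ± 0.29, still without a call. These genes were named after their values had been seen.

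Among receptor partners, beside 14.4% of all genes in young and 7.6% in old mice, 1 of 4 was called higher in each age. It was Eng, endoglin, a co-receptor of endothelial cells and some macrophages, with 1.28 ± 0.29 (adjusted p of 0.00334) and 1.68 ± 0.32 (adjusted p of 0.0023). Of 8 endothelial markers 5 were tested, and 3 of these were called higher in young and 4 in old mice. Kdr, which had the highest level of the 8, was not called (-0.28 in young and 0.18 in old mice). Tek and Emcn were well above background on 0 arrays of every group. Fkbp1a, which holds the type I receptor inactive, and Strap were not called (-0.60 and -0.39 in young, -0.21 and -0.74 in old mice, and -0.67 and -0.62 there without mice 4 and 6).

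Genes that modify Smads or their receptors were called lower in 2 of 5 in young mice, beside 21.4% of all genes. In old mice 0 of 5 were called lower, beside 17.4%. Without mice 4 and 6 there, 1 of 5 was lower and 1 of 5 higher, beside 3985 and 2074 of 17464 genes. Usp15, a deubiquitinase of the receptor and Smads, fell by 1.78 ± 0.31 in young mice (adjusted p of 0.000528). In old mice it differed by -0.86 ± 0.77, and without mice 4 and 6 it fell by 2.17 ± 0.31 and was called. Smurf2, a ubiquitin ligase that Smad7 brings to the receptor, and Ppm1a, a Smad phosphatase, were not called (0.89 and 0.48 in young, 0.52 and 0.15 in old mice), but without mice 4 and 6 Smurf2 rose by 0.86 ± 0.19 in old mice and was called (adjusted p of 0.00418), and Ppm1a differed by 0.48.

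Nuclear co-regulators of Smads were called lower in 3 of 8 in young and 2 of 8 in old mice, and 0 were called higher. Of all genes tested, 21.4% in young and 17.4% in old mice were called lower, and 14.4% and 7.6% higher. Tgif1, a co-repressor, fell by 1.19 ± 0.17 (adjusted p of 0.000147) and 2.12 ± 0.49 (adjusted p of 0.00573), the latter 1.32 ± 0.19 without mice 4 and 6. Crebbp, a co-activator, differed by -0.64 ± 0.22 in young mice without a call and fell by 1.02 ± 0.23 in old mice (adjusted p of 0.00562). Ep300, its relative, was not called (-0.24 in young and -0.75 in old mice, and -0.08 without mice 4 and 6).

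Known target genes of the pathway were called higher in 6 of 8 and lower in 1 of 8 in young mice. In old mice 2 of 8 were called higher and 1 of 8 lower. The shares of all genes were 14.4% and 21.4% in young mice, and 7.6% and 17.4% in old mice. Without old irradiated mice 4 and 6 the old count was 4 higher and 1 lower, with Klf10 (0.80) and Id1 (1.32) added, and the median went from 0.30 to 0.85. Tsc22d1, induced by TGF-beta, rose by 2.30 ± 0.29 (adjusted p of 6.32e-05) and 1.78 ± 0.25 (adjusted p of 0.000534). Tgfbi rose by 1.10 ± 0.16 in young mice (adjusted p of 0.000134) and differed by -0.11 ± 0.66 in old mice, or 0.90 ± 0.40 without mice 4 and 6, so the sign rested on these mice. Id2 rose by 1.60 ± 0.22 in young mice (adjusted p of 0.000112) and differed by 0.36 ± 0.39 in old mice. Id3, a gene of lymphocytes as well as a TGF-beta and bone morphogenetic protein (BMP) target, was the gene of this list that fell, by 1.24 ± 0.15 and 1.98 ± 0.38, and Cdkn2b, a cell cycle inhibitor, rose by 2.84 ± 0.28 and 1.02 ± 0.30, and both were named after their values had been seen, as were Klf10 and Id1. The Cdkn2b probe was well above background on 3 of 6 arrays of young unirradiated mice.

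The related BMP, activin and TAK1 branches were short lists, with 7, 5 and 3 genes tested. Of all genes, 14.4% were called higher and 21.4% lower in young mice, and 7.6% and 17.4% in old mice. In the BMP branch 1 of 7 was called higher in each age. Bmp2 rose by 2.15 ± 0.13 in young mice (adjusted p of 4.77e-07), differed by 0.82 ± 0.91 in old mice and was called there without mice 4 and 6 (2.42 ± 0.26). Bmp4 was called in old mice (adjusted p of 0.0116), but its probe was not well above background on any array of old unirradiated mice, so no size is given, and the call was lost without mice 4 and 6, where Bmp7 was called instead (1.26). Smad5 and the receptor Acvr1 were not called (-0.21 and 0.82 in young, -1.23 and -0.49 in old mice, and -0.55 and -0.08 there without mice 4 and 6). In the activin branch Acvr1b fell by 0.79 ± 0.15 in young mice and Fst, follistatin, was called higher (adjusted p of 2.89e-05). The Fst probe was well above background on 0 arrays of either unirradiated group, so no size is given. In old mice 0 of 5 were called with all mice and 1 of 5, again Fst (adjusted p of 0.000775), without mice 4 and 6. In the TAK1 branch Tab1 fell by 0.85 ± 0.14 and 1.17 ± 0.32 (0.70 ± 0.15 without mice 4 and 6), and Tab2 and Map3k7, the kinase itself, were not called (-0.12 and 0.06 in young, 0.03 and -0.51 in old mice, Map3k7 being at -0.23 without mice 4 and 6).

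**Figure D5:**
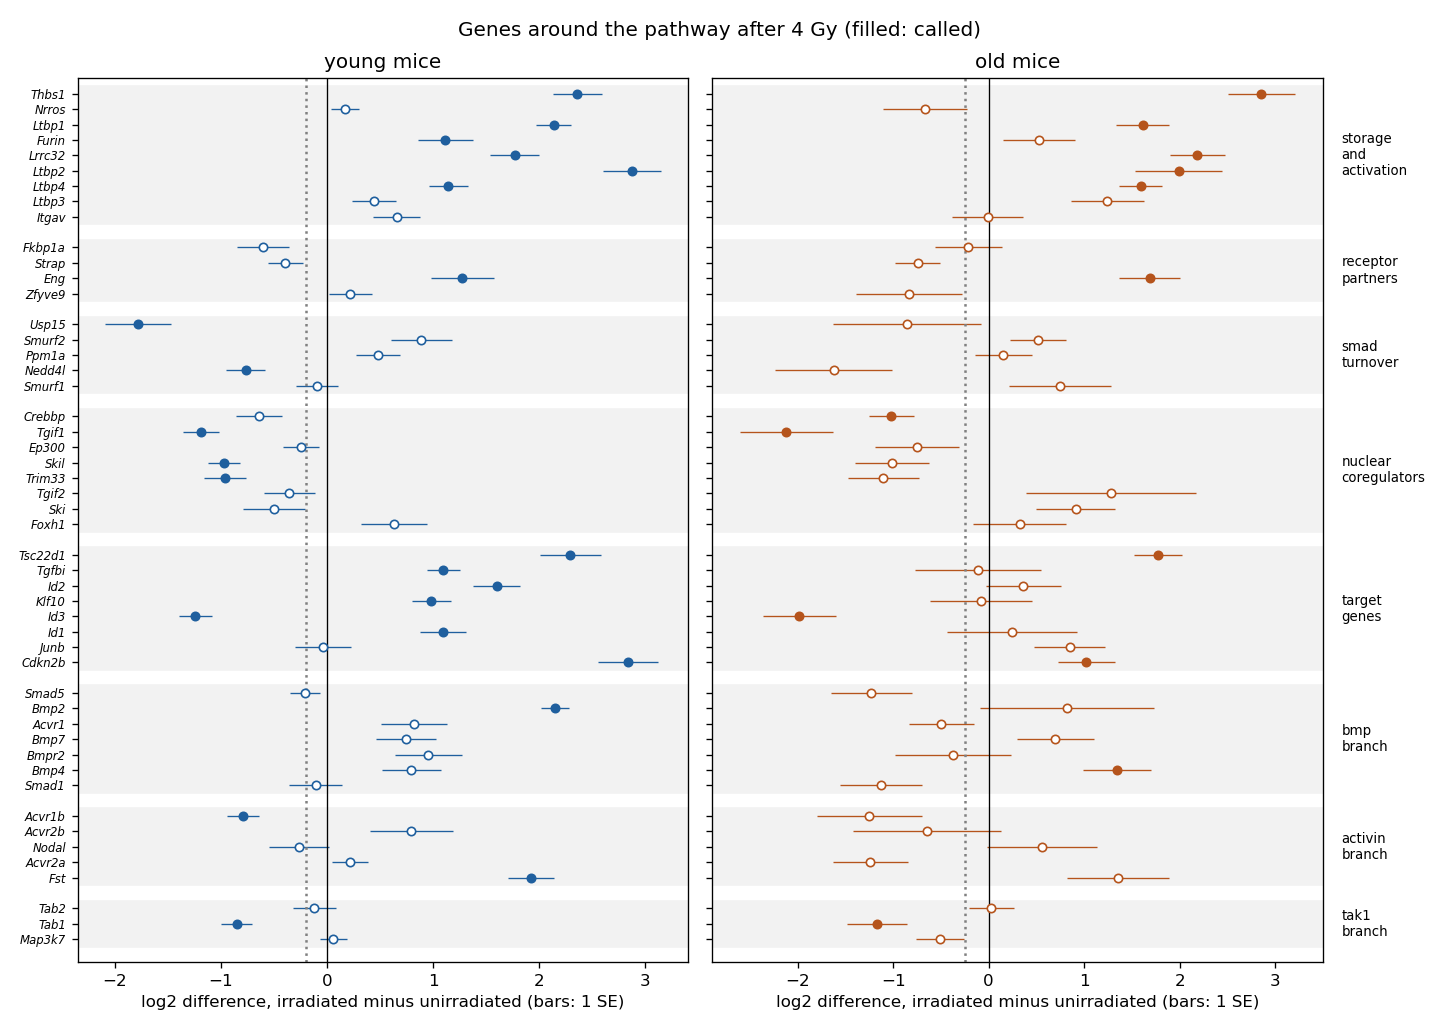
Log2 difference between irradiated and unirradiated mice for the 49 tested genes of the 8 lists, in young (left) and old (right) mice, with bars of 1 SE, filled where called and a dotted line at the median of all genes tested. The storage and activation genes lie to the right of 0 in both ages apart from Nrros and Itgav in old mice, and the old values, drawn with all mice, include irradiated mice 4 and 6, which move several target genes to the left.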

How the data were processed

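The authors drew blood into PAXgene tubes, reduced globin RNA, hybridised 1 sample per array and read the intensity of each spot with Agilent Feature Extraction 12.0.2, which subtracted background and did not scale arrays. The deposited table of log2 values was filtered and normalized by the authors (its column medians were between 5.77 and 6.73, and its centring is unknown); it served as an alternative. From the processed intensity, spots flagged as non-uniform were set to missing, the median over 43020 spots that are not controls was subtracted on the log2 scale, repeat spots were averaged, and of 39429 probes 24123 passed the filter on dim probes (those with a poor or insignificant spot on 25% or more of arrays were dropped). The brightest probe stood for each of 18729 genes, and 17464 differed 1.5-fold from their median in 20% of arrays. Tests used limma 3.58.1 in R 4.3.3 on the 12 arrays compared (24 for the interaction), two-sided, and were tested on simulated data. The number of arrays limits the precision. No 2 arrays agreed within the noise of repeat spots (lowest ratio 2.54), and counting the most similar arrays as 1 sample was an alternative. Alternatives covered scaling, background, filters, probe summary, variance model, blocks and mice left out. Named genes were all members, up to 3 brightest genes per list and the 3 nearest patterns. The members and lists were chosen with earlier results of these data known. The serous cavity list and a mesothelium list (0 to 4 of its 4 genes well above background on an irradiated array, 0 or 1 on an unirradiated one) were written after values of several of their genes had been seen.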

Additional observations from a re-analysis of the deposited data

Results flagged for a closer look

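Among 40 sets of 6 mice (10 genes in 4 groups), 1 held a value far from the others: Tgfb3 in old irradiated mouse 4 was at -1.06, where the other 5 mice were between -0.11 and 0.10. The gap was 0.82 of the range of the group, above Dixon's critical value for 6 samples. Chance gives about 1 such value in 20 groups. The same mouse had the lowest median signal of the 24 arrays, 8.66, and the Tgfb3 probe was not well above background there; the part of signal strength in this value was not tested.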

How the results depend on the processing

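The number of members called in young mice after irradiation, 5, became 1 with normexp background correction, 3 with the authors' deposited table and 0 within the slide that holds both groups; it stayed at 5 with each mouse left out. In old mice the number, 2, became 0 with normexp, the deposited table, within the slide, or with the most similar arrays counted as 1 sample (an alternative chosen after seeing the data), 1 without the filter on dim probes and 4 in 1 fit of all 24 arrays, and ran from 0 to 3 with each mouse left out. For age it was 6, and became 2 (Tgfb1 and Tgfbr3), 1 (Tgfbr3) and 2 (Tgfb3 and Tgfbr3) with the 75th percentile, quantile and bright-probe scaling, where 6, 7 and 6 members passed the filter on variation; the 5 calls in young mice under these scalings likewise include Tgfbr3 in place of Smad3 or Tgfb1. The count for age was 0 with normexp, 2 with the deposited table and 2 in 1 fit of all arrays, and ran from 5 to 7 with each mouse left out. The interaction count was 0 under every alternative run. Array medians lie below the normexp offset of 50, and fewer arrays enter the slide comparisons; other causes were not tested. With the replicate block the number of members called in old mice was 1 instead of 2 (Tgfb1 lost its call), with 5 and 6 in the other comparisons; same-numbered mice are separate animals and their deviations correlated between -0.29 and 0.34. The difference of Tgfbr2 with age reversed in the deposited table (-0.03). Within the shared slide the differences after irradiation had the same sign as over all slides for all 9 members in young mice and for all but Tgfbr1 (0.53) in old mice. Signal over background limits what can be seen of Tgfb2 and Tgfb3.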
